A study of Homo sapiens with 18 samples.

Results

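The genes that encode the subunits of the oxidative phosphorylation machinery were followed in 18 RNA-seq libraries of Cal27, a cell line established from a squamous cell carcinoma of the human tongue. Members were the protein-coding genes of the count table whose symbols begin with MT-ND, MT-CO, MT-CYB or MT-ATP, or follow the NDUFA, NDUFB, NDUFC, NDUFS or NDUFV naming with a digit, or begin with UQCR, COX4 to COX8, ATP5F1, ATP5M or ATP5P, together with SDHA, SDHB, SDHC and SDHD. These patterns matched 280 symbols among 60683 gene IDs, of which 179 were not protein-coding and were left out, leaving 101 members. Of the 101, 13 are encoded in mitochondrial DNA and 88 in the nucleus. CYC1 and NDUFAB1 do not match the naming patterns and were read with companion lists.

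The electron transport chain passes electrons from NADH and succinate to oxygen and pumps protons across the inner mitochondrial membrane, and ATP synthase uses the returning protons to make ATP. Complexes I, III and IV and ATP synthase (complex V) are built from subunits of both genomes, whereas complex II, succinate dehydrogenase, is wholly nuclear and also works in the citric acid cycle. Mitochondrial DNA is copied into long transcripts of its heavy and light strands that are then processed into single RNAs, so that mitochondrial mRNA levels depend on processing and decay as well as on transcription. Many carcinoma lines keep oxidative phosphorylation while fermenting glucose, and without glucose they have to draw ATP from other fuels.

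Each of 6 groups had 3 libraries, taken after 24 hours. Glucose-deprived medium with 10 nM recombinant human CGRP and deprived control medium made up one pair. The next pair, with and without 10 nM CGRP, had high-glucose DMEM and in it 5 mM of 2-deoxyglucose (2-DG), which enters cells like glucose but cannot pass through glycolysis. High-glucose DMEM with 10 nM CGRP and high-glucose control medium made up the last. CGRP is calcitonin gene-related peptide, released by sensory nerves. The arms are titled TG and capTG, and only the design text equates these codes with CGRP and with control medium. The growth protocol names unspecified CM instead, so the identity of the arms rests on that text. All libraries came from 1 cell line, and the replicates are labelled as independent repetitions. In bulk RNA, fewer cells of a kind and less RNA per cell cannot be told apart.

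Each library held between 28.04M and 32.66M counts. Keratinocyte and squamous carcinoma markers (7 genes, with KRT5 between 645 and 2397 CPM, counts per 1e6 counts of TMM-scaled library size) summed to 2755 to 4590 CPM in every library. Fibroblast markers summed to 10.5 to 27.3 CPM, leukocyte markers to 0 to 4.68, endothelial markers to 0.102 to 2.64 and neuronal markers to 0.509 to 1.27 CPM. PTPRC, CD3E, RBFOX3 and SNAP25 were at 0 in 12 or more libraries each. Along the second principal component, which held 7.39% of the variance against 68.7% for the first, 2 libraries stood apart from their group mates: deprived CGRP replicate 2 and 2-DG control replicate 2. In these libraries short transcripts were higher than in their mates, and long ones lower. Transcripts of 800 to 1500 bases were higher by a median of 0.37 and 0.24 on the log2 scale, and those of 6000 bases or more differed by -0.47 and -0.33. Nuclear subunits, with a median transcript of 1090 bases against 2630 for all tested genes, were displaced further still, by a median of 0.69 in deprived CGRP replicate 2 (78 of 80 above their mates) and of 0.50 in 2-DG control replicate 2 (74 of 80). Mitochondrially encoded subunits were displaced by a median of 0.16 and 0.09, but single ones moved further, in both directions. In deprived CGRP replicate 2, MT-CO3 was at 3048.5 CPM against 2063 and 1953 CPM in its mates. MT-ND5 was at 889 CPM there, against 1273 and 1238 CPM. Results are therefore given on all 18 libraries and again without these 2. Other libraries of a group differed less, though not always by counting noise alone. Chi-square per gene between mates was 1.41 to 1.86 in high-glucose control and 1.61 to 2.10 in deprived control libraries. It reached 3.85 in high-glucose CGRP libraries, 5.34 in 2-DG CGRP libraries, 43.0 with 2-DG control replicate 2 and 85.1 with deprived CGRP replicate 2. A milder shift of the same form was present in 2-DG CGRP replicate 1. There 74 of 80 nuclear subunits lay above their mates, with a median of 0.11. High-glucose CGRP replicate 1 was shifted the other way, with 6 of 80 above and a median of -0.09. Both stayed in the fit without the 2 libraries that stand apart. How independent the repetitions were was not tested.

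**Figure D1:**
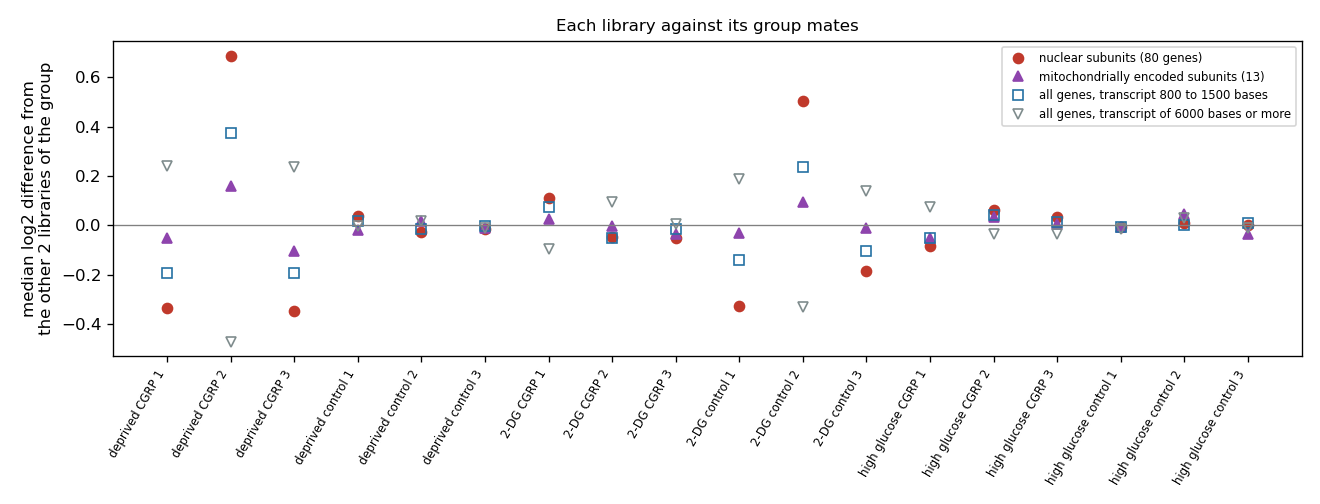
Median log2 difference of each library (x axis) from the other 2 libraries of its group, for the 80 tested nuclear subunits (red circles), the 13 mitochondrially encoded subunits (purple triangles) and all genes with short or long transcripts (open symbols). Nuclear subunits sit 0.69 above their mates in deprived CGRP replicate 2 and 0.50 above them in 2-DG control replicate 2.

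A low-count filter kept 93 of the 101 members: all 13 mitochondrially encoded ones and 80 of the 88 nuclear ones, among 18159 genes tested. The 8 that were not tested had between 0 and 92 counts over all libraries. They were COX4I2, COX6A2 and COX7A1 (isoforms of lung, of heart and muscle, and of muscle), COX7B2, COX8C and ATP5MGL, and the readthrough genes NDUFC2-KCTD14 and ATP5MF-PTCD1. COX4I2 had 0 counts, and COX6A2 and COX7A1 1 count each. Scaled by transcript length, the mitochondrially encoded mRNAs were far above the nuclear ones: in high-glucose control libraries the median was 2141 CPM per kilobase (range 258 to 8558) for the 13 and 69.1 (0.273 to 599) for the 80. MT-CO1, the catalytic core subunit of complex IV, was highest of the 13 on this scale, and MT-ATP8, a small membrane subunit of ATP synthase, lowest. Some low nuclear levels have to be read with care. The 17 tested nuclear members whose exons are overlapped on the same strand by another coding gene in GENCODE 29 had a median of 6.85 CPM per kilobase, against 85.5 for the other 63. SDHA had 3459 counts while its pseudogenes had 38976, and NDUFV2 had 435 counts while its processed copy NDUFV2P1 had 2092. How shared reads were assigned is not given in the sources used here.

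Summed over members and scaled by TMM, mitochondrially encoded subunits held fewer counts in glucose-deprived cells. The sum was 30896, 34240 and 29657 CPM in deprived CGRP libraries and averaged 31598 ± 2371 CPM (SD, n = 3), against 41114 ± 709 CPM in high-glucose CGRP libraries. In control medium it averaged 32037 ± 187 CPM in deprived and 37352 ± 639 CPM in high-glucose libraries. The groups do not overlap in either arm. Nuclear subunits summed to 6986, 10528 and 6925 CPM in deprived CGRP libraries, against a mean of 9404 ± 309 CPM in high-glucose CGRP libraries. The middle value belongs to the library that stands apart, and it alone lies above the high-glucose libraries. In control medium the nuclear sum was 7641 ± 122 CPM in deprived and 9116 ± 58.5 CPM in high-glucose libraries, again without overlap. Sums with 2-DG stayed near those of high glucose: mitochondrially encoded subunits reached 39304 ± 664 CPM in 2-DG CGRP and 38955 ± 1866 CPM in 2-DG control libraries. With CGRP the 2-DG libraries still lay below the high-glucose ones, at 38611 to 39935 against 40335 to 41720 CPM. In control medium these groups overlapped. For nuclear subunits the 2-DG control libraries held 8441, 11711 and 8857 CPM, the high value again in the library that stands apart.

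The ratio of the mitochondrially encoded to the nuclear sum, on the log2 scale, was 1.98 ± 0.24 in deprived CGRP, 2.07 ± 0.03 in deprived control, 2.09 ± 0.04 in 2-DG CGRP, 2.02 ± 0.19 in 2-DG control, 2.13 ± 0.02 in high-glucose CGRP and 2.03 ± 0.02 in high-glucose control libraries (SD, n = 3 each). Both sums were lower under deprivation, and in control medium their ratio differed between deprived and high-glucose libraries by little more than its SD. In high glucose the ratio was higher with CGRP, at 2.11 to 2.15 against 2.01 to 2.06 in control libraries, without overlap. The arms overlapped in deprived and in 2-DG medium, and no test was run on the ratio. The large SDs belong to the 2 groups with a library that stands apart.

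**Figure D2:**
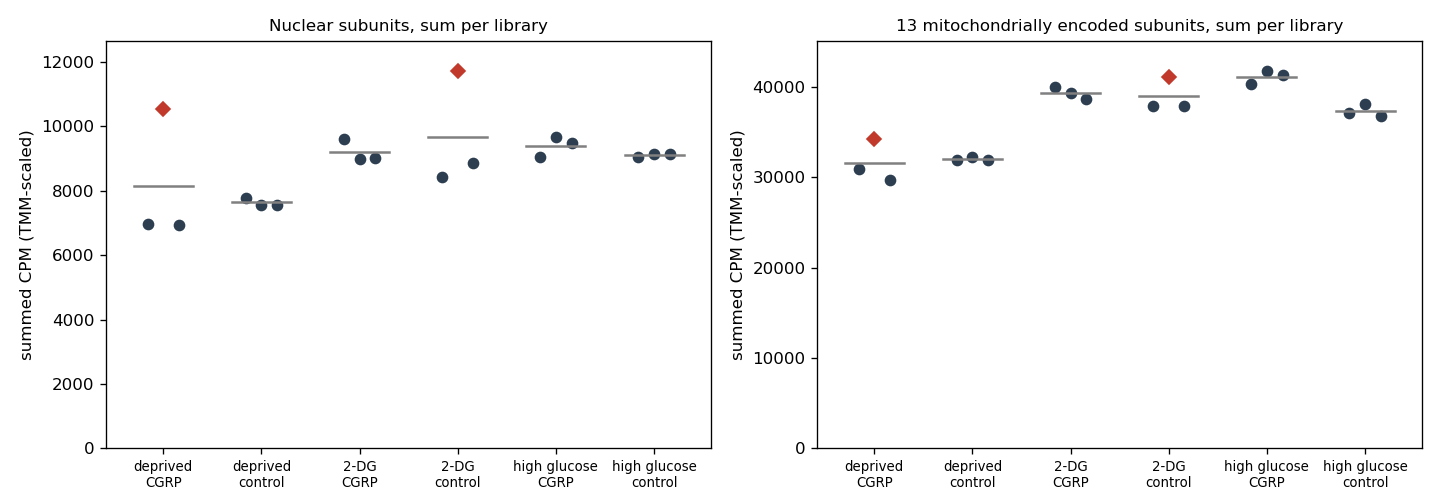
Summed TMM-scaled CPM of the 88 nuclear subunits (left) and the 13 mitochondrially encoded subunits (right) in each library, by group on the x axis, with grey bars for group means; red diamonds are the 2 libraries that stand apart. Deprived control libraries average 7641 and 32037 CPM, below the high-glucose control means of 9116 and 37352 CPM.

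Mitochondrially encoded mRNAs fell with glucose deprivation, but not evenly along the genome. In control medium 8 of the 13 fell, 1 rose and 4 did not pass (edgeR quasi-likelihood test, Benjamini-Hochberg adjusted p under 0.05), where 60.6% of all tested genes changed, 31% up and 29.6% down. With CGRP 11 fell, 1 rose and 1 did not pass, where 60.4% of all genes changed, 31.9% up and 28.5% down. The median log2 fold change of the 13 was -0.44 in control medium and -0.60 with CGRP, against 0.02 and 0.04 over all genes. Without the 2 libraries 9 fell and 1 rose in control medium, where 72.4% of all genes changed (36.1% up and 36.3% down), and the median was -0.47. With CGRP 12 then fell and 1 rose, where 69.9% changed (35% up and 34.9% down), and the median was -0.63.

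MT-CO3 of complex IV and MT-ATP6 and MT-ATP8 of complex V, which lie next to each other on the heavy strand, fell furthest in control medium. MT-CO3, a core subunit of complex IV, had 2034, 2018 and 1998 CPM in deprived control libraries, against 4433, 4519 and 4407 CPM in high-glucose control libraries. Its log2 fold change was -1.14 ± 0.133 (SE; edgeR adjusted p = 1.45e-06) in control medium and -1.19 ± 0.133 (edgeR adjusted p = 8.73e-07) with CGRP, which was -1.45 without the library that stands apart. MT-ATP6, the membrane subunit that forms the proton path of ATP synthase, had 729, 736 and 717 CPM in deprived control libraries, against 1454, 1497 and 1450 CPM in high-glucose control libraries. It fell by 1.01 and, with CGRP, by 1.18 on the log2 scale. MT-ATP8 had 29.9, 31.7 and 29.6 CPM in deprived control libraries, against 53.9, 56.9 and 49.6 CPM in high-glucose control libraries, and fell by 0.81 and, with CGRP, by 1.37. The deprived and high-glucose libraries do not overlap for any of these genes in either arm.

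Reading frames overlap in this stretch, which bears on how reads are counted. MT-ATP8 and MT-ATP6 share 46 bases at chrM:8527-8572, and MT-ND4L and MT-ND4 share 7 bases at chrM:10760-10766, both on the plus strand of GRCh38 in GENCODE 29. The shared bases are shown because a read across them belongs to both genes, with the ATG start codon of the second gene in capitals.
MT-ATP8 and MT-ATP6: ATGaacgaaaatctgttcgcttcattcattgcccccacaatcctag
MT-ND4L and MT-ND4: ATGctaa
MT-ATP8 and MT-ND4L values are uncertain for this reason, and MTATP6P1, a nuclear copy of MT-ATP6, held counts equal to 13.5% of those of MT-ATP6.

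The other genes of complex IV moved less. MT-CO1 had 13401, 13516 and 13438 CPM in deprived control libraries, against 12960, 13480 and 13148 CPM in high-glucose control libraries, with a log2 fold change of 0.03 (adjusted p = 0.674 in edgeR). This sign turned under scaling by total counts, which moved the median of all genes to -0.13. MT-CO2, the subunit that receives electrons from cytochrome c, had log2 fold changes of -0.25 (edgeR adjusted p = 0.0888) in control medium and -0.41 (adjusted p = 0.00764) with CGRP, which was -0.63 without the library that stands apart. MT-CYB, the one mitochondrially encoded subunit of complex III, fell in both arms. It had 1397, 1406 and 1390 CPM in deprived control libraries, against 2327, 2267 and 2252 CPM in high-glucose control libraries, with log2 fold changes of -0.71 ± 0.0511 (edgeR adjusted p = 4.22e-09) and, with CGRP, -0.85 ± 0.0512 (adjusted p = 3.98e-10).

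Complex I genes diverged. MT-ND1, the core subunit at the junction of the membrane and peripheral arms, rose. It had 704, 711 and 720 CPM in deprived control libraries, against 499, 500.3 and 520.0 CPM in high-glucose control libraries, a log2 fold change of 0.49 ± 0.0613 (edgeR adjusted p = 3.16e-06), and 0.44 with CGRP (0.33 without the library that stands apart). MT-ND2, MT-ND3 and MT-ND5, further core subunits of the membrane arm, fell by 0.27, 0.44 and 0.46 in control medium and by 0.41, 0.74 and 0.60 with CGRP. MT-ND4, of the same arm, was at -0.01 in control medium and fell by 0.19 with CGRP. MT-ND4L was at 0.11 in control medium and fell by 0.54 with CGRP, a value that library replicate 2 moves, since it held 246 CPM there against 574 and 532 CPM in its mates. Without that library and the other one, the change was -0.27 and passed, while 6 of 28 alternatives lost the call.

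MT-ND6 is the one protein gene copied from the light strand. It had 192, 169 and 208 CPM in deprived CGRP libraries and 240.0, 252 and 240.4 CPM in deprived control libraries, against 427, 426 and 421 CPM in high-glucose CGRP libraries and 342, 336 and 328 CPM in high-glucose control libraries. Deprivation lowered it by 1.16 with CGRP and by 0.46 in control medium. Its counts may include antisense RNA of the heavy strand, because the strand setting is not given in the sources used here.

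Of the RNAs next to these genes, the mitochondrial rRNAs, which are not members, went the other way. MT-RNR2 had 10938, 10552 and 10955 CPM in deprived control libraries, against 3643, 3863 and 4042 CPM in high-glucose control libraries. The log2 fold changes were 1.49 ± 0.0773 for MT-RNR2 and 1.20 ± 0.146 for MT-RNR1 in control medium, and 1.57 and 1.26 with CGRP. Together the rRNAs held only 0.47% of counts in high-glucose control and 1.16% in deprived control libraries. Whether selection or removal of rRNA in library preparation bears on these levels was not tested. MT-RNR1, MT-RNR2 and MT-ND1 lie one after the other from the start of the heavy-strand transcript, and these were the RNAs that rose. From MT-ND2 onward no protein gene rose past the threshold in either arm.

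**Figure D3:**
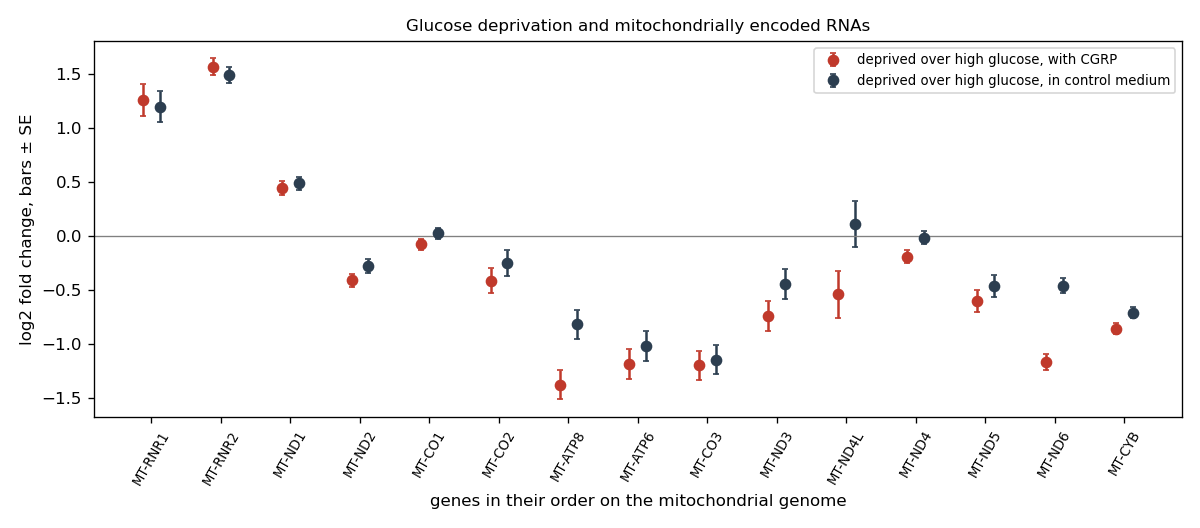
Log2 fold change of deprived over high-glucose libraries (y axis, bars ± SE) for the 2 mitochondrial rRNAs and 13 mRNAs in genome order (x axis), with CGRP in red and in control medium in dark blue. The rRNAs lie at 1.20 to 1.57, MT-ND1 at 0.44 to 0.49, and MT-CO3 and MT-ATP6 at -1.01 to -1.19.

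More nuclear subunits fell than rose. In control medium 30 of the 80 fell, 6 rose and 44 did not pass, so that 45% changed where 60.6% of all genes did, and 37.5% fell where 29.6% did. With CGRP 26 fell, 6 rose and 48 did not pass, where 60.4% of all genes changed and 28.5% fell. The median log2 fold change was -0.26 in control medium and -0.16 with CGRP. Without the 2 libraries 55 fell and 10 rose in control medium, where 72.4% of all genes changed, and 66 fell and 6 rose with CGRP, where 69.9% did, with medians of -0.29 and -0.46. Medians of nuclear subunits lay below those of all genes of like length: in control medium the median was -0.31 for the 24 nuclear subunits under 800 bases, -0.25 for the 28 of 800 to 1500 bases and -0.33 for the 16 of 1500 to 3000 bases, beside -0.0046, 0.01 and 0.03 for all genes of those lengths.

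The counts by complex stand beside 31% of all genes that rose and 29.6% that fell in control medium, and 31.9% and 28.5% with CGRP. Complex I, which oxidises NADH, had 36 tested nuclear subunits, of which 10 fell and 2 rose in control medium and 10 fell and 3 rose with CGRP, a share of falls near that over all genes. NDUFB3, an accessory subunit of the membrane arm, had 22.2, 20.1 and 19.1 CPM in deprived control libraries, against 50.6, 55.8 and 52.7 CPM in high-glucose control libraries. Its log2 fold change was -1.37 ± 0.171 (edgeR adjusted p = 3.04e-06), and -1.23 with CGRP. NDUFA2 and NDUFS5, also accessory subunits, fell by 0.95 and 0.94 in control medium and by 0.75 and 0.80 with CGRP, and NDUFA1, another, fell by 0.69 and 0.80. NDUFS4, an accessory subunit of the NADH-oxidising arm, went the other way. It had 68.0, 67.4 and 67.3 CPM in deprived control libraries, against 48.9, 48.6 and 49.4 CPM in high-glucose control libraries, a log2 fold change of 0.46 (edgeR adjusted p = 0.0175). With CGRP NDUFS4 rose by 0.45, or 0.15 without the library that stands apart, and NDUFB9, an accessory subunit, by 0.37, or 0.09 without it. NDUFA13 rose by 1.04 and 1.00 at levels of 0.568 to 1.88 CPM, and was chosen for mention after its values were seen, since its low level leaves it outside the naming rule. Its exons overlap other coding genes on the same strand.

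Complex II, where succinate is oxidised, had 4 nuclear subunits and 3 of them fell in control medium. SDHD, a membrane anchor, had 39.4, 38.6 and 40.9 CPM in deprived control libraries, against 55.2, 53.7 and 53.4 CPM in high-glucose control libraries, and fell by 0.45. Its exons overlap another coding gene on the same strand. SDHC, the other anchor, fell by 0.27, and SDHA, the flavoprotein, by 0.37, though SDHA is uncertain because of its pseudogenes. SDHB, the iron-sulfur subunit, had a log2 fold change of -0.29 (edgeR adjusted p = 0.0513). With CGRP SDHC and SDHD fell, by 0.25 and 0.46, and SDHA and SDHB were at -0.30 and -0.20. Without the 2 libraries all 4 fell with CGRP, SDHA by 0.36, SDHB by 0.42, SDHC by 0.39 and SDHD by 0.67. In complex III, which hands electrons from ubiquinol to cytochrome c, 3 of 9 fell in control medium and 2 with CGRP. The share in control medium was near that over all genes. UQCR10, a small accessory subunit, had 57.1, 51.2 and 58.1 CPM in deprived control libraries, against 98.6, 106 and 102 CPM in high-glucose control libraries, and fell by 0.88, and by 0.73 with CGRP. UQCRC2, a core protein, fell by 0.32 and 0.36.

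Complex IV, cytochrome c oxidase, had 14 tested nuclear subunits, of which 4 fell and 3 rose in control medium and 3 fell and 2 rose with CGRP. The share of falls in control medium was near that over all genes. The 3 that rose there were COX7A2L, COX6B2 and NDUFA4L2. Genes of the same family went opposite ways. COX7A2, the widely expressed small subunit, had 83.0, 81.9 and 73.2 CPM in deprived control libraries, against 133, 131 and 134 CPM in high-glucose control libraries. COX7A2L, its relative that helps respiratory complexes associate, had 192, 193 and 192 CPM in deprived control libraries, against 109, 109 and 105 CPM in high-glucose control libraries. COX7A2 fell by 0.74 and COX7A2L rose by 0.84 ± 0.0875 (edgeR adjusted p = 4.16e-07). With CGRP COX7A2 fell by 0.70 and COX7A2L rose by 0.94, or by 1.04 and 0.77 without the library that stands apart. COX6B1 and COX6B2 are the widely expressed and the testis-type form of another small subunit. COX6B1 fell by 0.61 and by 0.59 (0.97 without the library that stands apart), whereas COX6B2 rose by 1.52 ± 0.243 and by 2.46 ± 0.236 at levels of a few CPM or less. COX6B2 had 2.23, 3.47 and 2.31 CPM in deprived CGRP libraries and 1.88, 1.45 and 1.60 CPM in deprived control libraries, against 0.429, 0.344 and 0.668 CPM in high-glucose CGRP libraries and 0.501, 0.635 and 0.572 CPM in high-glucose control libraries. Its exons also overlap another coding gene on the same strand. NDUFA4, counted here with complex IV, fell by 0.35 in control medium, while its low-level relative NDUFA4L2 rose by 0.64 there, with groups that overlap, and was at 0.11 with CGRP. COX4I1, which helps regulate the enzyme through ATP, was at 0.02 in control medium and 0.15 with CGRP, and COX6A1 at 0.05 with CGRP. Both with-CGRP values turned sign without the 2 libraries, COX4I1 to -0.21 and COX6A1 to -0.60, and both genes then passed. The exons of COX6A1 overlap another coding gene on the same strand.

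In complex V, ATP synthase, 10 of 17 tested nuclear subunits fell and 1 rose in control medium, and 9 fell and 1 rose with CGRP. Subunits of the catalytic head fell modestly, ATP5F1A and ATP5F1B by 0.45 and 0.36 in control medium and 0.42 and 0.43 with CGRP. ATP5MF, a small membrane subunit, fell by 0.99 and 0.88 (1.39 without the library that stands apart). Its exons overlap other coding genes on the same strand.

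**Figure D4:**
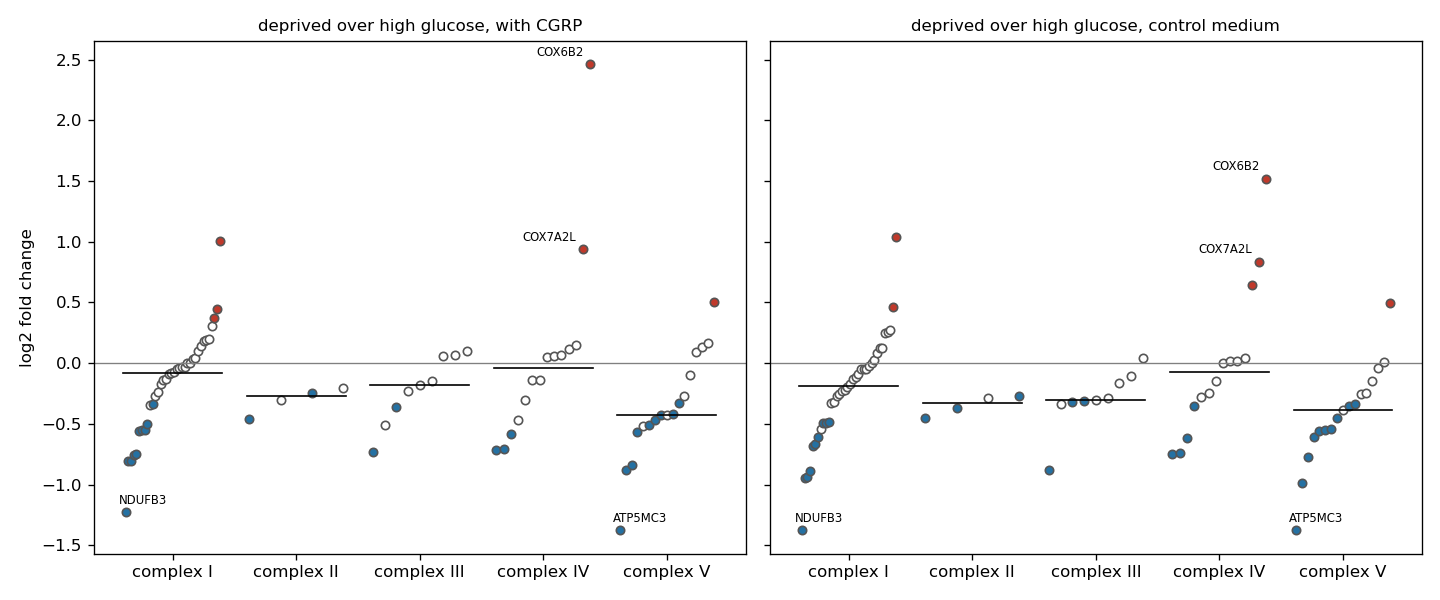
Log2 fold change of deprived over high-glucose libraries (y axis) for each tested nuclear subunit, grouped by complex on the x axis, with CGRP (left) and in control medium (right); filled blue points fell, filled red points rose, open points did not pass, and bars are medians. ATP5MC3 lies at -1.38 in both panels and COX7A2L at 0.94 and 0.84.

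Subunit c, which forms the rotating ring of ATP synthase, is encoded by ATP5MC1, ATP5MC2 and ATP5MC3, whose precursors differ in the targeting sequence and give the same mature protein. These genes did not move together. ATP5MC3 had 121, 116 and 115 CPM in deprived control libraries, against 307, 302 and 304 CPM in high-glucose control libraries, and fell by 1.38 ± 0.14 (edgeR adjusted p = 2.97e-07), the largest fall of any tested member in control medium. ATP5MC1 had 54.1, 51.3 and 50.6 CPM in deprived control libraries, against 89.1, 89.4 and 88.0 CPM in high-glucose control libraries, and fell by 0.77. ATP5MC2 went the other way, with 102, 105 and 102 CPM in deprived control libraries, against 72.1, 74.1 and 73.7 CPM in high-glucose control libraries, and rose by 0.49. With CGRP ATP5MC2 rose by 0.50, or by 0.20 without the 2 libraries that stand apart.

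As a share of the summed counts of the 3 genes, ATP5MC2 made up 37.4% ± 0.75 (SD, n = 3) in deprived CGRP libraries and 37.9% ± 0.94 in deprived control libraries, against 15.2% ± 0.20 in high-glucose CGRP and 15.7% ± 0.26 in high-glucose control libraries. ATP5MC3 made up 44.4% and 43.0% in the deprived groups, against 66.0% and 65.2% in the high-glucose groups. ATP5MC1 held 18.2% and 19.1% in the deprived groups, against 18.8% and 19.0% in the high-glucose groups. In deprived CGRP replicate 2, the library that stands apart, ATP5MC2 held 38.2%, against 36.7% and 37.2% in its mates. With 2-DG, ATP5MC2 held 15.9% in CGRP and 16.7% in control libraries. The summed level of the 3 was 272 ± 5.12 CPM in deprived control libraries, against 466 ± 1.27 CPM in high-glucose control libraries.

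**Figure D5:**
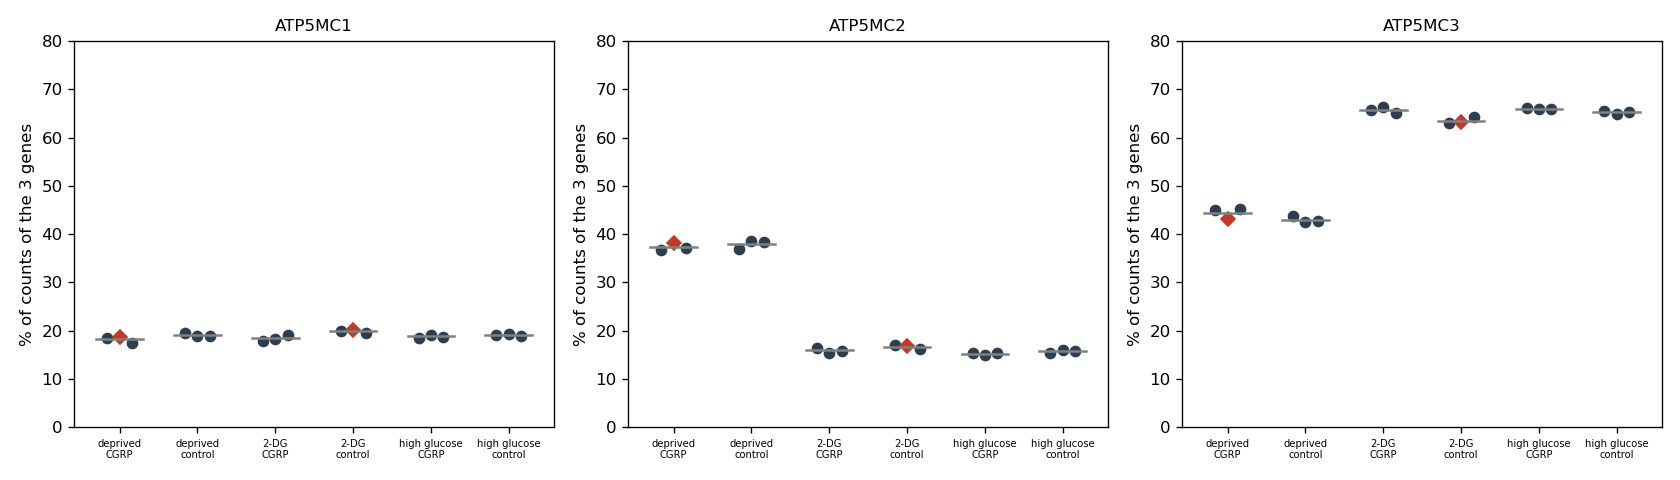
Share of the counts of the 3 subunit c genes held by each (y axis, percent) in every library, by group on the x axis, with grey bars for means and red diamonds for the 2 libraries that stand apart. ATP5MC2 holds about 37.4% to 37.9% in deprived groups and 15.2% to 15.7% in high-glucose groups, and ATP5MC3 moves the other way.

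Promoters of 3 members that fell and of ATP5MC2, which rose, are shown as examples picked by no set rule (RefSeq, GRCh38.p14, 250 bases before to 50 after the start). Motif letters were searched on both strands: GCGCANGCG for nuclear respiratory factor 1, CCGGAAG for ETS factors, TGATGNAA for the amino acid response element and TGACGTCA for the cAMP response element, the last chosen after the promoters were seen. Matches are in capitals.
ATP5MC1, chr17:48892537-48892836, plus strand: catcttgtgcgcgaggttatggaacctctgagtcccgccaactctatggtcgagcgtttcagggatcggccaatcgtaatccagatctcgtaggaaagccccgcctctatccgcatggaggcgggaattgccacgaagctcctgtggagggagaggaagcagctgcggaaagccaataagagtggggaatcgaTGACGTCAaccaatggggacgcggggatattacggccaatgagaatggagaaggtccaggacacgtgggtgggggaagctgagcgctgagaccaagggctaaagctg
ATP5MC2, chr12:53676281-53676580, minus strand: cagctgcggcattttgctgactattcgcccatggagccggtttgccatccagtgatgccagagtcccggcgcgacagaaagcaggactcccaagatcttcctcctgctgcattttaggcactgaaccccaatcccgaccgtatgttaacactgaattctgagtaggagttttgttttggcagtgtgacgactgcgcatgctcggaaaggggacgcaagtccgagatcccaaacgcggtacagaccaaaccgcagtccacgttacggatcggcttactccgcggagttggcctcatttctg
SDHD, chr11:112086623-112086922, plus strand: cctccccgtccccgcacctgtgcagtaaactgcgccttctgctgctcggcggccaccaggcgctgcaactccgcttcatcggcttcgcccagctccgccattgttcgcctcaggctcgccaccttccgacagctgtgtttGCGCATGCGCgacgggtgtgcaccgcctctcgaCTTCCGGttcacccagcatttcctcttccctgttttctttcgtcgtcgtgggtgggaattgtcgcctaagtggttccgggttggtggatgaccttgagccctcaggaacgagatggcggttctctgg
UQCR10, chr22:29767119-29767418, plus strand: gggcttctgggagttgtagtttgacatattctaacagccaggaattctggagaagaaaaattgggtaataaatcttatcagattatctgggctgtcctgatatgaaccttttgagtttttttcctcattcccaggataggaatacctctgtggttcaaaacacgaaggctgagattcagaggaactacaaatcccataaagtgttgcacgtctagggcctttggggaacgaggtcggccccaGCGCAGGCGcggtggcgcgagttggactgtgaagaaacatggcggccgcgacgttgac
ATP5MC1 held 1 cAMP response element, SDHD held 2 overlapping matches to the nuclear respiratory factor 1 letters and 1 to the ETS letters, UQCR10 held 1 match to the nuclear respiratory factor 1 letters, and the ATP5MC2 window shown held no match. That window is the most upstream of 3, and another of the ATP5MC2 windows held the nuclear respiratory factor 1 letters. Each gene was counted as holding letters found in any of its windows. The 3 fallers shown each held a match, but COX7A2, COX7B, NDUFA2, NDUFB3, NDUFB6 and UQCRC2, which also fell, held none. Promoters were found for 69 of the 88 nuclear members, in 82 windows. The nuclear respiratory factor 1 letters were in 28.05% of these windows against 7.52% of all 35116 windows, the ETS letters in 26.8% against 10.3%, the amino acid response letters in 2.44% against 3.62% and the cAMP response letters in 6.10% against 1.85%. Of the 24 matched genes that fell with deprivation in control medium, 11 held the nuclear respiratory factor 1 letters and 7 the ETS letters, beside 10 and 13 of the 36 that did not pass and 1 and 1 of the 5 that rose. A longer form searched first, with C after these letters, was in 20.7% of member windows against 5.78% of all, and in 9 genes that fell, 7 that did not pass and 0 that rose. A match describes the letters and says nothing of a factor binding there.

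With 2-DG, few members changed. In control medium MT-ND1 rose by 0.21 and MT-CYB by 0.18, where 13.8% of all genes changed (7.99% up and 5.85% down). The MT-ND1 call was lost in 7 and the MT-CYB call in 10 of 28 alternatives, and neither passed without any 1 of the high-glucose control libraries. COX6B2 had 0.215, 0.137 and 0.132 CPM in 2-DG control libraries, against 0.501, 0.635 and 0.572 CPM in high-glucose control libraries, and fell by 1.78 ± 0.367 (SE). With CGRP MT-ND6 alone fell, by 0.37, a call lost in 3 of 28 alternatives, where 2.39% of all genes changed (1.52% up and 0.87% down). When the 2 libraries were left out, 2 nuclear subunits rose and 18 fell in control medium, where 32.5% of all genes changed (18.1% up and 14.3% down), and 3 rose and 18 fell with CGRP, where 19.5% changed (10.5% up and 9.01% down). Mitochondrially encoded subunits then numbered 2 higher and 3 lower in control medium, and 9 lower with CGRP.

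CGRP raised 4 mitochondrially encoded mRNAs in high glucose, where 4.33% of all genes changed (2.04% up and 2.29% down), and no nuclear subunit passed. MT-ND1 had 636, 671 and 666 CPM in high-glucose CGRP libraries, against 499, 500.3 and 520.0 CPM in high-glucose control libraries, and rose by 0.38 ± 0.0613 (edgeR adjusted p = 0.0016). MT-ND6, MT-CYB and MT-ND2 rose by 0.34, 0.31 and 0.26, and the MT-ND6 call was lost in 3 and the MT-ND2 call in 6 of 28 alternatives. A fit without the 2 libraries, which belong to neither group, called 9 mitochondrially encoded and 13 nuclear subunits, all higher, where 19.1% of all genes changed (9.14% up and 9.92% down). Leaving out high-glucose control replicate 2 or 3 left 2 of the mitochondrially encoded ones.

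In deprived medium CGRP raised MT-ND1 by 0.33 and MT-CYB by 0.16 and lowered MT-ND4L by 0.72, MT-ATP8 by 0.48 and MT-ND6 by 0.37, where 13% of all genes changed (6.38% up and 6.58% down). Without the 2 libraries MT-ND4L was at -0.42, which passed, and MT-ATP8 at -0.34, which did not. Over the 28 alternatives run, the MT-CYB call was lost in 18 (edgeR adjusted p up to 0.571, with the transcript-length offset), that of MT-ATP8 in 8, that of MT-ND4L in 7 and those of MT-ND1 and MT-ND6 in 1 each. COX6B2 rose by 0.69, the one nuclear subunit that passed, and did not pass without the library that stands apart. With the 2 libraries left out, 40 nuclear subunits fell and none rose, with a median of -0.14 against 0.10 on all 18, where 28.7% of all genes changed (12.1% up and 16.6% down). The sign of the nuclear median in this comparison therefore turned with the library that stands apart. In 2-DG medium CGRP lowered MT-ATP8 by 0.49, a call lost in 4 of 28 alternatives, where 12.2% of all genes changed (5.31% up and 6.89% down), and no nuclear subunit passed. There, 28 nuclear subunits rose and 1 fell without the 2 libraries, with a median of 0.08 against -0.11 on all 18, where 28.4% changed (12.3% up and 16.1% down).

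The effect of CGRP differed between deprived and high-glucose medium for 1 member. MT-ND6 was lowered by CGRP in deprived medium and raised in high glucose, a difference of -0.71 ± 0.10 on the log2 scale (edgeR adjusted p = 0.00141), where 1.55% of all genes differed (0.903% up and 0.65% down). It was -0.63 without the 2 libraries, and 10 mitochondrially encoded and 38 nuclear subunits then differed, all with lower values, where 13.5% of all genes did (5.86% up and 7.67% down). The effect of CGRP did not differ past the threshold between 2-DG and high-glucose medium for any member, where 0.391% of all genes did (0.121% up and 0.27% down). Leaving out the 2 libraries, 4 mitochondrially encoded and 1 nuclear subunit passed, where 5.91% of all genes did (2.32% up and 3.59% down).

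Companion lists placed the subunits beside the genes that build and control them. Their counts stand beside 31% of all genes that rose and 29.6% that fell under deprivation in control medium. There 13 of 21 tested genes of a citric acid cycle list fell and 1 rose, with a median log2 fold change of -0.39 against 0.02 over all genes. With CGRP 14 fell and 2 rose. The list also holds genes of the pyruvate dehydrogenase complex, the PDK kinases that inhibit it, and PC. Its counts are therefore not those of cycle enzymes alone. IDH3A, which makes 2-oxoglutarate, fell by 0.54, DLAT of the pyruvate dehydrogenase complex by 0.49, and PDK3, a kinase that inhibits that complex, by 0.97. Of 12 mitochondrial stress genes 5 rose and 1 fell, with a median of 0.08. LONP1, a matrix protease, rose by 1.22 ± 0.0677 and HSPA9, the matrix chaperone mortalin, by 0.99 ± 0.0516, and by 1.46 and 1.05 with CGRP.

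Genes of mitochondrial DNA expression were divided, with 10 of 30 higher and 9 lower in control medium. SUPV3L1, a helicase of mitochondrial RNA decay, rose by 0.97 and LRPPRC, which stabilises mitochondrial mRNAs, by 0.53, while MGME1, a nuclease of mitochondrial DNA, fell by 0.45. Assembly factors were also divided: 4 of 19 for complex I rose and 4 fell, and 9 of 39 for complexes II to V rose and 11 fell. NDUFAF3, a complex I assembly factor, rose by 0.63 and COA7, a complex IV factor, by 0.72. COA1, of the complex I list, fell by 0.20 and COA5, of the other list, by 0.47. Of 13 biogenesis regulators 6 rose and 4 fell. ATF5, a regulator of the mitochondrial unfolded protein response, rose by 0.99, SIRT1, a deacetylase that acts on PGC-1alpha, by 0.63, and HIF1A, the hypoxia factor, fell by 0.90. PPARGC1A, which encodes PGC-1alpha, was at a low level and lay lower under deprivation. It had 0.296, 0.310 and 0.238 CPM in deprived control libraries, against 0.835, 1.048 and 1.346 CPM in high-glucose control libraries. Its CGRP effect was higher in deprived medium than in high glucose, by 1.43 ± 0.334 (edgeR adjusted p = 0.0424). Of 16 cytochrome c and coenzyme Q genes 5 rose and 5 fell, among them COQ4, of coenzyme Q synthesis, which rose by 0.53, and COQ3, a methyltransferase of that pathway, which fell by 0.88.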

How the data were processed

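The authors deposited raw counts per gene for 60683 Ensembl gene IDs in 18 libraries, from reads aligned with HISAT2 2.0.4, per the submitters' processing notes. Both hg19 and GRCh38 are named there and the one behind the counts is unknown. How reads were counted, on what annotation and strand, is not given in the sources used here. Symbols came from a gene name table that holds 60370 of the IDs.

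Genes kept by filterByExpr (at least 10 counts, 15 in total) numbered 18159. The robust quasi-likelihood F test of edgeR 4.0.16 under R 4.3.3 was run on TMM-scaled counts, with 1 coefficient per group, 12 residual degrees of freedom and Benjamini-Hochberg adjustment over all genes, called at 0.05. The common biological coefficient of variation was 9.44%, with the 2 libraries that stand apart in the fit. The procedure was run on simulated counts with known changes. These held no libraries that stand apart and no shift by transcript length, so that run cannot speak to either. Levels are TMM-scaled CPM, and intervals cover spread between labelled independent repetitions only.

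Members and lists were chosen with earlier results of these data known, so counts over them are descriptions. Named nuclear genes are the 5 largest rises and falls per comparison whose average log2 CPM was 1 or more, isoform pairs and complex II, and the 3 smallest adjusted p of each companion list; mitochondrially encoded members are all named. Not all of these are described, and UQCR10, UQCRC2, NDUFA13, ATP5F1A and ATP5F1B were chosen after their values were seen. Alternatives were RLE factors, total counts, TMM without mitochondrially encoded genes, 2 other filters, DESeq2 1.42.0, fits restricted to the groups compared, a replicate block, and leaving out libraries. An offset for transcript length (lowess span 0.3) was added after seeing the data. In the promoters, a longer form of the nuclear respiratory factor 1 letters was searched first, and the shorter form shown and the cAMP response element were added after seeing the data.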

Additional observations from a re-analysis of the deposited data

Results flagged for a closer look

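MT-ND6, the light-strand subunit of complex I, responded differently to CGRP in the 2 media. The difference between its CGRP effect in deprived medium and in high glucose was -0.71 on the log2 scale, by the interaction term of the edgeR fit. The CGRP effect was -0.37 in deprived medium and 0.34 in high glucose. All 3 deprived CGRP libraries lay below all 3 deprived control libraries, and all 3 high-glucose CGRP libraries lay above all 3 high-glucose control libraries. Without the 2 libraries that stand apart the difference was -0.63. Whether antisense reads contribute was not tested, since the strand setting is not given in the sources used here.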

How the results depend on the processing

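No called member reversed under any alternative run: over all pairs of a called member and an alternative, 2737 stayed past the threshold and 197 did not. The deprivation counts of mitochondrially encoded subunits stayed within 1.5 times in every alternative. Scaling by total counts moved the median of all genes under deprivation in control medium to -0.13 and gave 42 nuclear falls and 4 rises there.

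Without the 2 libraries that stand apart, nuclear subunits called numbered 65 (deprivation in control medium), 72 (deprivation with CGRP), 20 (2-DG in control medium), 21 (2-DG with CGRP), 13 (CGRP in high glucose), 40 (CGRP in deprived medium), 29 (CGRP in 2-DG medium), 38 (CGRP by deprivation) and 1 (CGRP by 2-DG). Mitochondrially encoded ones numbered 5 and 9 with 2-DG, 9, 8 and 5 with CGRP in high glucose, deprived and 2-DG medium, and 10 and 4 in the interactions with deprivation and 2-DG. In fits of only the groups compared, nuclear counts were 67 for deprivation in control medium, 13 for 2-DG with CGRP, 22 for CGRP in high glucose and 0 for CGRP in deprived medium. Mitochondrially encoded counts there were 0 for 2-DG in control medium, 8 for 2-DG with CGRP, 9 for CGRP in high glucose, 0 for CGRP in deprived and in 2-DG medium, and 1 for CGRP by 2-DG.

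For 2-DG in control medium, total counts gave 1 mitochondrially encoded subunit, no filter gave 0, and the stricter filter left 0 nuclear ones. For CGRP in deprived medium no filter gave 0 nuclear and 2 mitochondrially encoded subunits, the stricter filter 0 nuclear, and the length offset 2 nuclear. DESeq2 gave 2 mitochondrially encoded subunits for CGRP in 2-DG medium and 2 for CGRP by 2-DG. The length offset gave 0 for 2-DG with CGRP, 2 for CGRP by deprivation and 1 for CGRP by 2-DG. The cause was not tested.

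The replicate block gave 2 nuclear subunits for 2-DG in control medium in place of 1 and moved no other count by over 1.5 times. Same-numbered libraries deviated together with correlations of -0.154 to 0.174 within the comparisons. Over all pairs of groups these ran from -0.185 to 0.636, beside -0.513 to 0.387 for differently numbered libraries, and both libraries that stand apart are numbered 2. No comparison had every correlation over 0.1, so the numbers were not taken to pair the samples. Among named nuclear subunits, deprivation calls in control medium were lost in 11 alternatives for SDHA, 6 for NDUFA4, 5 for NDUFS4, 4 for NDUFA4L2 and 1 each for SDHC and ATP5MC2. With CGRP they were lost in 12 for NDUFB9, 5 for NDUFS4, 4 each for SDHC and COX6B1, 3 each for ATP5MF and ATP5MC2, and 1 for ATP5F1A.

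Leaving out single libraries gave these ranges of calls. Nuclear subunits ran from 29 to 43 (deprivation in control medium), 25 to 56 (deprivation with CGRP), 1 to 2 (2-DG in control medium), 0 to 0 (2-DG with CGRP, CGRP in high glucose and both interactions) and 0 to 1 (CGRP in deprived and in 2-DG medium). Mitochondrially encoded ones ran from 9 to 10 and 11 to 13 (deprivation), 0 to 4 and 0 to 6 (2-DG), 2 to 5, 2 to 6 and 0 to 1 (CGRP in high glucose, deprived and 2-DG medium), 1 to 3 (CGRP by deprivation) and 0 to 3 (CGRP by 2-DG). The count of 56 came without deprived CGRP replicate 2, as did 4 for 2-DG in control medium, 6 for 2-DG with CGRP and 3 in both interactions; 1 nuclear subunit then passed for CGRP in 2-DG medium, 2 for 2-DG in control medium and 0 for CGRP in deprived medium. For 2-DG in control medium, no mitochondrially encoded subunit passed without any 1 of the high-glucose control libraries or without 2-DG control replicate 2 or 3, and 1 passed without replicate 1. For 2-DG with CGRP, 0 passed without 2-DG CGRP replicate 1 or 3. For CGRP in 2-DG medium, 0 passed without 2-DG CGRP replicate 3 or 2-DG control replicate 2 or 3. For CGRP in high glucose, 2 passed without high-glucose control replicate 2 or 3. For CGRP in deprived medium, 2 passed without any 1 deprived control library, and 0 nuclear ones without replicate 2 or 3. Changes of the 8 untested members, with 0 to 92 counts over all libraries, were not detectable at this depth.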
